A study of Homo sapiens with 9 samples.

Results

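The proteasome is the chamber in which cells break down ubiquitin-tagged protein, and its subunits and assembly factors form the set of transcripts described here in OPM-1, a cell line established from human multiple myeloma, a tumour of plasma cells. The members were all rows of the deposited table whose symbol is PSMA, PSMB, PSMC, PSMD, PSME, PSMF or PSMG followed by a number, or POMP, with 1 further row left out, which gave 48 members of 38478 gene rows. They fell into 18 genes of the 20S core, 17 of the 19S cap, 5 activators and inhibitors, and 8 assembly chaperones. The rule used symbols and no measured value. Poly(A)-selected, strand-specific RNA sequencing covered 9 libraries. OPM-1 cells stably expressing RNAs against FBXW7 and KMT2D together (gFBXW7_gKMT2D), against FBXW7 alone (gFBXW7), or against luciferase, the control (gLuc), gave 3 libraries each, labelled as independent biological replicates. All cells share the parental line and a stably expressed RNA, and the labels give neither the method by which the RNAs act nor whether a line is clonal. Pooled cells were sequenced, so fewer cells with a transcript and less of it per cell cannot be told apart.

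In the proteasome, rings of alpha subunits (PSMA genes) gate the chamber and rings of beta subunits (PSMB genes) line it, with PSMB5, PSMB6 and PSMB7 carrying the peptide-cutting sites. The 19S cap binds ubiquitin chains, removes them, unfolds the substrate with its ring of ATPases (PSMC genes) and feeds it into the core. Other activators (PSME genes) open the core without ubiquitin, and dedicated chaperones (POMP, PSMG genes and a few PSMD genes) assist assembly and leave or are destroyed. Plasma cells make large amounts of immunoglobulin and lean heavily on the proteasome, and inhibitors of PSMB5 are standard drugs in myeloma. FBXW7 is the substrate receptor of a ubiquitin ligase whose targets end in the proteasome, and KMT2D is a histone H3 lysine methyltransferase.

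Total counts were 16337492 to 27076242 per library. The check on the targeted genes showed FBXW7 at 45.2 to 71.7 CPM in gFBXW7_gKMT2D, 53.4 to 55.5 CPM in gFBXW7 and 47.9 to 53.8 CPM in gLuc, and KMT2D at 28.6 to 107 CPM in gFBXW7_gKMT2D, 48.8 to 65.1 CPM in gFBXW7 and 40.97 to 104 CPM in gLuc. The 3 groups overlapped for both genes, and neither passed the test, with adjusted p of 0.90 to 1.0 over the 3 comparisons, so these whole-gene counts do not check the labels. All 8 plasma cell markers were present, with highest levels of 61.7 to 1141 CPM, and the mature B cell, T cell, myeloid and stromal markers stayed under 1 CPM before TMM scaling, while HBB, an erythroid gene, was read at 23.3 to 42.4 CPM. The library gFBXW7_gKMT2D 3 stood apart: ribosomal protein genes took 8.22, 5.56 and 11.4% of counts in gFBXW7_gKMT2D 1, 2 and 3, 8.74, 7.61 and 6.92% in gFBXW7, and 8.401, 6.28 and 5.13% in gLuc. Below, CPM are counts scaled to library size with the trimmed mean of M-values (TMM), values of 3 libraries are in replicate order, and tests are from an edgeR quasi-likelihood fit of all 9 libraries with Benjamini-Hochberg adjustment over 13262 tested genes. An adjusted p under 0.05 is called a change.

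Per gene length, proteasome transcripts stood high. Of the 45 members that passed the filter on low counts, 43 had a median RPKM (the deposited count scaled to gene length and library size) above 5.37, the median of all tested genes. The median member had 83.5 RPKM. Core subunits spanned a 17.9-fold range of median RPKM, a measure of transcript that depends on the table's gene lengths. The assembled core holds equal numbers of each ring position, and protein was not measured here. PSMB4, a structural beta subunit (chromosome 1, 151399534 to 151401944, GRCh38), was the highest member with 732, 522 and 868 RPKM in gFBXW7_gKMT2D, 866, 717 and 715 RPKM in gFBXW7 and 764, 615 and 521 RPKM in gLuc. PSMA6, an alpha subunit (chromosome 14, 35278633 to 35317493), had 33.5 to 52.6 RPKM over the 9 libraries and PSMA5, also alpha, 32.7 to 46.7 RPKM. This pair was lowest in the core by median RPKM (40.2 for PSMA6, 40.6 for PSMA5) and overlapped. The table gives PSMB4 925 bases, PSMA6 2855 and PSMA5 3864, so this order rests in part on length. In CPM, which take no account of length, PSMA6 (87.8 to 176) lay above PSMB7 (47.1 to 80.98). PSMB4 stood above PSMA6 in all 9 libraries. In the cap, the lid subunit PSMD7 was highest with 303 to 609 RPKM, and another lid subunit, PSMD12, lowest by median RPKM with 23.4 to 28.9 RPKM, overlapped by the ATPase gene PSMC6 with 21.9 to 51.2 RPKM. Their table lengths are 1670 bases for PSMD7, 4722 for PSMD12 and 3204 for PSMC6, so this order too rests in part on length. Activators and chaperones sat lower, with medians of 54.2 and 45.6 RPKM, against 115 RPKM for the core and 87.3 RPKM for the cap. The low end was shared by PSMG4 (3.196 to 6.03 RPKM), PSMD5 (3.02 to 7.23 RPKM), PSME4 (5.21 to 12.8 RPKM) and PSMF1 (5.601 to 12.6 RPKM), whose ranges overlap in pairs along that order. These 4 also have the longest tested gene models of the set in the table, at 7238 to 8360 bases, so their RPKM rest on those lengths.

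**Figure D1:**
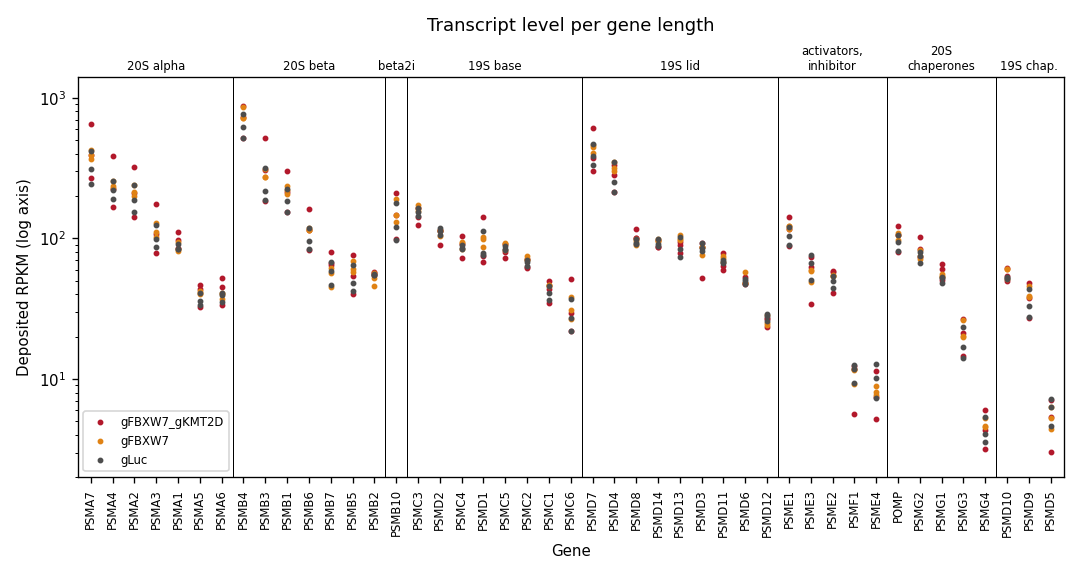
Deposited RPKM (log axis) of the 45 tested members in each of 9 libraries, 1 point per library, ordered by class and level, with colours for the groups. PSMB4, PSMD7 and PSMA7 head the set, PSMG4, PSMD5, PSME4 and PSMF1 lie lowest, and the groups overlap for most genes.

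The other 3 members were not tested because of low counts. PSMA8, the testis form of an alpha subunit, had 2 reads in all 9 libraries, and PSMB11, the thymus-specific catalytic subunit, also had 2. A floor of 3 counts in a library corresponds to 0.111 to 0.184 CPM before TMM scaling, the limit that a count of 0 allows. PSMB8, the inducible counterpart of PSMB5, is listed with 0 reads in 8 libraries and with 4 in gLuc 1. This 0 cannot be read as lack of expression. The table gives PSMB8 (chromosome 6, 32840717 to 32844703, in the major histocompatibility region) a length of 14174 bases, against 2997 bases of exons in GENCODE v29, and 66.7% of 168 protein-coding genes of that region had a table length at least 4 times that of GENCODE, against 1.34% of 821 on the rest of chromosome 6. Genes that every cell uses were near 0 there too: the ribosomal protein gene RPS18 had 35 reads and the splicing helicase gene DDX39B had 4 reads over the 9 libraries. Their table lengths were 1.51 and 2.33 times those of GENCODE, below that mark of 4. Above it in the region, TUBB (7.42 times) had 89 reads and TAP1 (5.24 times) had 10. Whether reads of PSMB8 were lost in counting was not tested.

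Across the 9 libraries most proteasome transcripts moved together. Their spread within groups was wide beside the differences between group means, as it was for nearly all tested genes. The median deviation of the 45 members from each gene's mean, on the log2 CPM scale, was 0.06, -0.39 and 0.48 in gFBXW7_gKMT2D, 0.11, 0.03 and 0.03 in gFBXW7 and 0.10, -0.13 and -0.32 in gLuc. Over all tested genes the same median stayed between -0.02 and 0.01. In 44 of 45 members (97.8%) the widest range within a group exceeded the largest difference between group means, as in 95.9% of all tested genes. The median SD among replicates was 0.44 in gFBXW7_gKMT2D, 0.10 in gFBXW7 and 0.24 in gLuc on that scale for the members, against 0.32, 0.13 and 0.22 for all tested genes in the same groups. The library gFBXW7_gKMT2D 3 held the highest value for 32 of 45 members (71.1%) and for 30.8% of all tested genes, and gFBXW7_gKMT2D 2 held the lowest for 29 members (64.4%) and for 16.3% of all tested genes. The ribosomal protein share given above was likewise highest in gFBXW7_gKMT2D 3. That library also had the fewest counts (16337492) and the lowest TMM factor (0.854), and gFBXW7_gKMT2D 2 the most counts (27076242) and the highest factor (1.09). The part of this share, of depth and of scaling in the pattern was not tested.

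The classes did not move equally. The 20S core had median deviations of 0.07, -0.55 and 0.77 in gFBXW7_gKMT2D, 0.22, 0.0044 and 0.01 in gFBXW7 and 0.17, -0.20 and -0.49 in gLuc. Assembly chaperones had 0.05, -0.35 and 0.57 in gFBXW7_gKMT2D, 0.19, -0.01 and 0.02 in gFBXW7 and 0.11, -0.13 and -0.36 in gLuc. The 19S cap moved less, with 0.05, -0.24 and 0.18 in gFBXW7_gKMT2D, 0.02, 0.10 and 0.05 in gFBXW7 and 0.09, -0.07 and -0.17 in gLuc. In a set of PSME3, PSME4, PSMF1 and PSMD5, picked after their values were seen, the order was turned round, with 0.05, 0.26 and -0.56 in gFBXW7_gKMT2D, -0.16, -0.0033 and 0.08 in gFBXW7 and -0.16, 0.17 and 0.33 in gLuc. These 4 were lowest in gFBXW7_gKMT2D 3, where the core was highest. The lid subunit PSMD3, outside that set, was also lowest there, at 134 CPM against 171 to 191 CPM in the other libraries. As a description over 9 libraries that all members share, 26 of 45 members had a Pearson r above 0.9 with the median of the other members, led by PSMB1 (r = 0.996), POMP (r = 0.994) and PSME1 (r = 0.993). Below 0 were 6 members: PSME4 (r = -0.955), PSME3 (r = -0.941), PSMD5 (r = -0.923), PSMF1 (r = -0.786), PSMD3 (r = -0.746) and PSMD2 (r = -0.198).

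**Figure D2:**
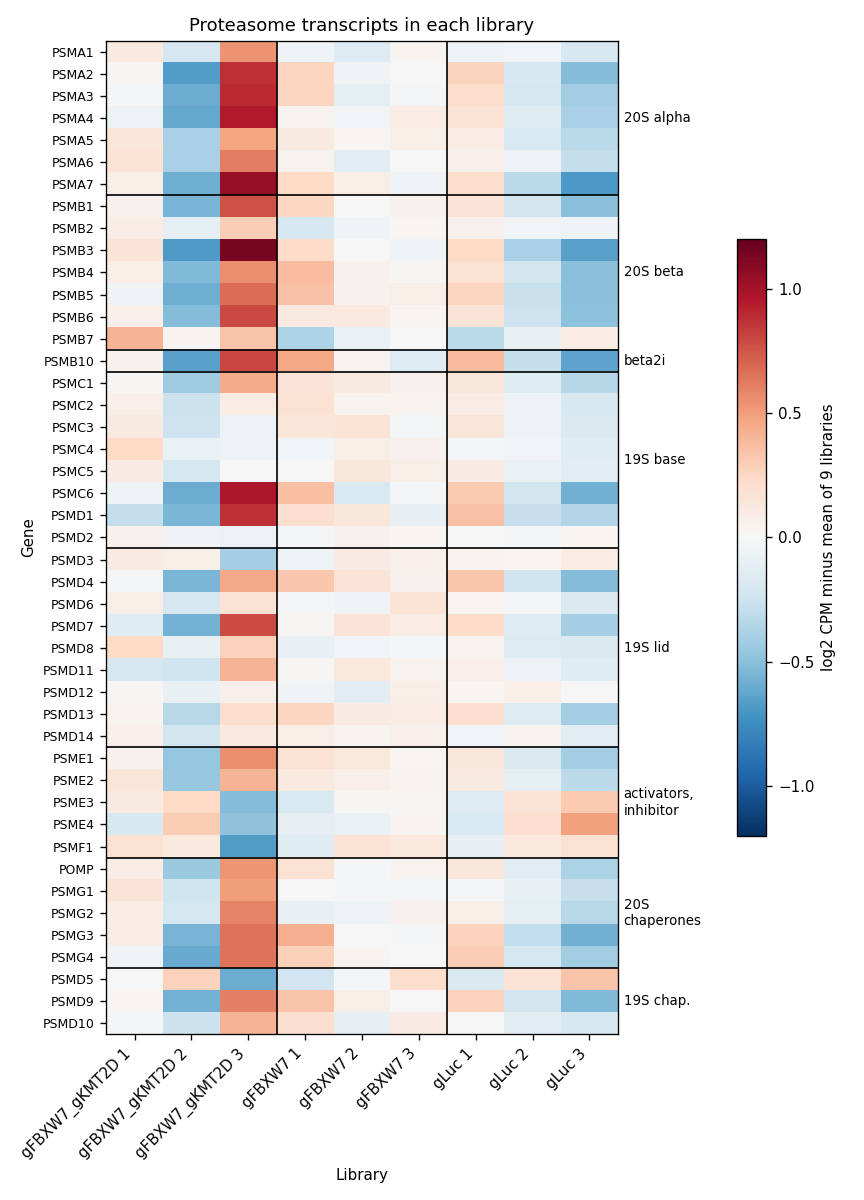
Colour gives log2 CPM minus the mean of the 9 libraries for each tested member (rows, by class) in each library (columns, by group). Most rows are highest in gFBXW7_gKMT2D 3 and low in gFBXW7_gKMT2D 2 and gLuc 3. PSME3, PSME4, PSMF1, PSMD5 and PSMD3 run the other way.

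**Figure D3:**
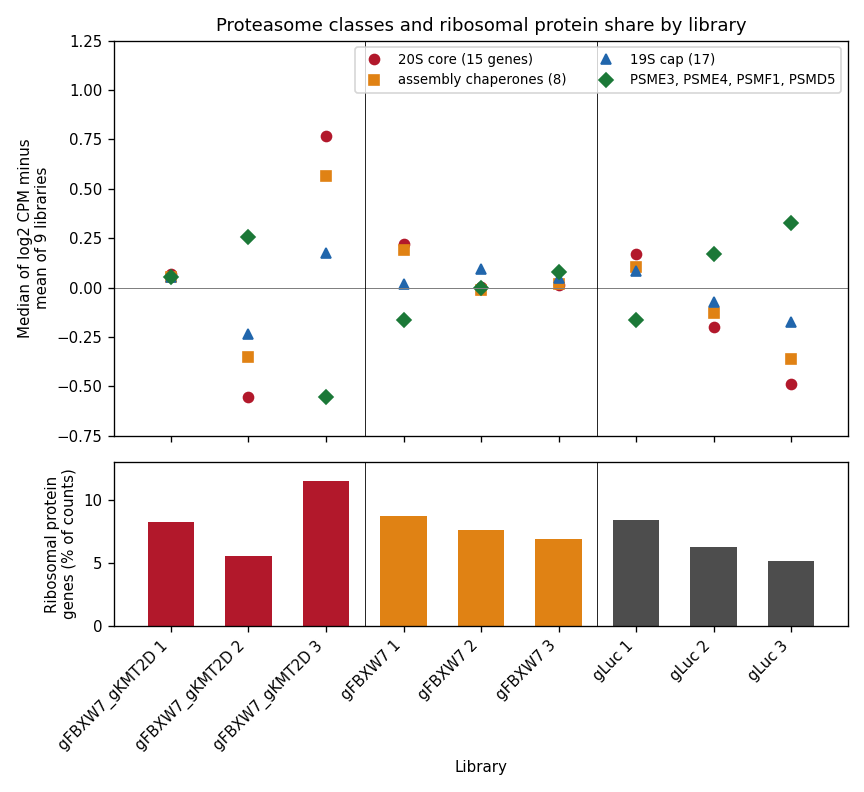
Upper panel: median over each class of log2 CPM minus the mean of the 9 libraries, 1 point per class and library (PSMD5 is in both the chaperones and the 4-gene set). Lower panel: share of counts in ribosomal protein genes (%). The core spans 1.32 and the cap 0.41 log2 units between their extreme libraries, and the share is largest in gFBXW7_gKMT2D 3.

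Among the catalytic subunits of the core, PSMB5, the chymotrypsin-like subunit and main target of proteasome inhibitors (chromosome 14, 23016543 to 23035230), had 84.1, 57.6 and 138 CPM in gFBXW7_gKMT2D, 110.4, 89.7 and 90.99 CPM in gFBXW7, against 103, 71.8 and 61.3 CPM in gLuc. PSMB6, the caspase-like subunit (chromosome 17, 4796144 to 4798503), had 101, 66.8 and 166 CPM in gFBXW7_gKMT2D, 104, 104 and 97.9 CPM in gFBXW7, against 107, 80.9 and 68.4 CPM in gLuc. For both genes gFBXW7_gKMT2D 3 was highest and gFBXW7_gKMT2D 2 lowest of the 9 libraries, so that the gFBXW7_gKMT2D libraries enclosed both other groups. PSMB7, the trypsin-like subunit (chromosome 9, 124353466 to 124415444), had 80.98, 62.4 and 77.2 CPM in gFBXW7_gKMT2D, 47.1, 57.6 and 61.1 CPM in gFBXW7, against 48.8, 57.4 and 64.9 CPM in gLuc. Its 3 gFBXW7_gKMT2D libraries lay above the gFBXW7 libraries and overlapped gLuc in a narrow band. PSMB10, the inducible subunit that replaces PSMB7 in the immunoproteasome (chromosome 16, 67934502 to 67937087), had 148, 90.8 and 249.6 CPM in gFBXW7_gKMT2D, 198, 147 and 129 CPM in gFBXW7, against 186, 117 and 92.4 CPM in gLuc. The groups overlapped for PSMB10. Per length, PSMB10 exceeded PSMB7 in all 9 libraries, with a ratio of RPKM of 1.85, 1.47 and 3.26 in gFBXW7_gKMT2D, 4.24, 2.57 and 2.12 in gFBXW7 and 3.84, 2.06 and 1.44 in gLuc. The ratio varied by nearly as much within gLuc as over all 9 libraries, and the groups overlapped.

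The widest swings of the core were in structural subunits. PSMB3, a beta subunit (chromosome 17, 38752736 to 38764231), had 485, 272 and 962 CPM in gFBXW7_gKMT2D, 508, 439 and 424 CPM in gFBXW7, against 516, 334 and 278 CPM in gLuc, a 3.54-fold ratio of highest to lowest library. PSMA7, an alpha subunit (chromosome 20, 62136735 to 62143440), had 402, 256 and 794 CPM in gFBXW7_gKMT2D, 452, 402 and 371 CPM in gFBXW7, against 443, 308 and 237 CPM in gLuc, a 3.34-fold ratio. In both, the largest and the smallest gFBXW7_gKMT2D value bracketed those of the other groups, apart from PSMA7 in gLuc 3, which was the lowest of all. Of the 15 tested core genes, 11 varied by more than 2-fold between libraries, with a median ratio of 2.49, and PSMB2 varied least (1.41-fold). Over all 13262 tested genes, 5151 varied by more than 2-fold, with a median ratio of 1.79.

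In the 19S cap the median ratio of highest to lowest library was 1.37, and 4 of 17 genes exceeded 2-fold. For all tested genes the median ratio was 1.79, and 5151 of 13262 exceeded 2-fold. PSMD2, a scaffold of the base that docks ubiquitin-like domains (chromosome 3, 184298709 to 184309054), was the steadiest member with 359, 336 and 331 CPM in gFBXW7_gKMT2D, 342, 360.1 and 353 CPM in gFBXW7, against 346, 342 and 352 CPM in gLuc, a 1.09-fold ratio. Its 9 libraries lay closer together than those of any other tested member. PSMD1, the other large scaffold of the base (chromosome 2, 231056864 to 231172827), had 323, 269.5 and 724 CPM in gFBXW7_gKMT2D, 454, 432 and 369 CPM in gFBXW7, against 503, 326 and 309 CPM in gLuc. The ATPase gene PSMC6 (chromosome 14, 52707172 to 52728587) had 94.5, 64.8 and 192 CPM in gFBXW7_gKMT2D, 126, 86.03 and 96.6 CPM in gFBXW7, against 122, 84.1 and 65.8 CPM in gLuc, and was the most variable cap gene with a 2.97-fold ratio. Both had their highest value in gFBXW7_gKMT2D 3, while the remaining 5 ATPase genes varied by 1.28-fold (PSMC5) to 1.82-fold (PSMC1). PSMC3, an ATPase gene, had 289.9, 227 and 256 CPM in gFBXW7_gKMT2D, 298, 301 and 267 CPM in gFBXW7, against 298, 259 and 239 CPM in gLuc. PSMD13, a lid subunit, had 186, 143 and 209 CPM in gFBXW7_gKMT2D, 215, 193 and 192 CPM in gFBXW7, against 207, 161 and 136 CPM in gLuc. The groups overlapped for both. In the lid, the ubiquitin-removing subunit PSMD14 had 167, 137 and 174 CPM in gFBXW7_gKMT2D, 169, 164 and 166 CPM in gFBXW7, against 156, 164 and 146 CPM in gLuc, and its gFBXW7 libraries all lay above the gLuc libraries by a margin smaller than the rounding of these values.

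The activators split into opposite patterns. PSME1, part of the interferon-inducible activator that aids antigen processing (chromosome 14, 24136158 to 24138967), had 137, 96.3 and 195 CPM in gFBXW7_gKMT2D, 149, 145 and 135 CPM in gFBXW7, against 146, 118 and 99.9 CPM in gLuc. Its partner PSME2 (chromosome 14, 24143362 to 24147570) had 93.3, 61.5 and 112 CPM in gFBXW7_gKMT2D, 91.2, 87.9 and 86.00 CPM in gFBXW7, against 90.5, 78.3 and 67.5 CPM in gLuc. The pair kept a ratio of RPKM of 2.02 to 2.404 in all 9 libraries and both were highest in gFBXW7_gKMT2D 3. PSME3, the nuclear activator that forms a ring of its own (chromosome 17, 42824385 to 42843758), had 243, 266 and 157 CPM in gFBXW7_gKMT2D, 198, 227 and 228 CPM in gFBXW7, against 203, 253 and 280.2 CPM in gLuc. PSME4, the large activator linked to breakdown of acetylated histones (chromosome 2, 53864067 to 53970840), had 53.97, 76.1 and 44.2 CPM in gFBXW7_gKMT2D, 57.7, 58.4 and 62.9 CPM in gFBXW7, against 54.5, 70.8 and 86.7 CPM in gLuc. PSMF1, which binds the core and inhibits it in vitro (chromosome 20, 1113263 to 1189415), had 99.1, 94.7 and 54.9 CPM in gFBXW7_gKMT2D, 78.9, 98.3 and 95.1 CPM in gFBXW7, against 81.2, 95.1 and 99.02 CPM in gLuc. For all 3 genes gFBXW7_gKMT2D 3 was the lowest of the 9 libraries, and the groups overlapped. The ratio of PSMB3 to PSME3 RPKM, both ends of this split, was 4.898, 2.51 and 14.99 in gFBXW7_gKMT2D, 6.28, 4.74 and 4.56 in gFBXW7 and 6.24, 3.24 and 2.44 in gLuc.

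Of the chaperones of the core, POMP, which brings beta subunits onto the alpha ring and is degraded on completion (chromosome 13, 28659104 to 28678925), had 154, 107 and 211 CPM in gFBXW7_gKMT2D, 165, 143 and 149.8 CPM in gFBXW7, against 160.2, 133 and 112 CPM in gLuc. PSMG1 had 80.98, 61.5 and 103 CPM in gFBXW7_gKMT2D, 72.4, 72.1 and 71.9 CPM in gFBXW7, against 71.9, 68.2 and 59.9 CPM in gLuc. PSMG2, with which it pairs to build alpha rings, had 96.98, 78.5 and 138 CPM in gFBXW7_gKMT2D, 85.6, 87.5 and 94.4 CPM in gFBXW7, against 95.8, 83.7 and 72.1 CPM in gLuc. These genes followed the core subunits, highest in gFBXW7_gKMT2D 3 and low in gFBXW7_gKMT2D 2 and gLuc 3. In the second pair of alpha ring chaperones, PSMG3 had 29.9, 19.04 and 44.1 CPM in gFBXW7_gKMT2D, 38.1, 28.1 and 27.8 CPM in gFBXW7, against 33.97, 22.8 and 18.8 CPM in gLuc. PSMG4 had 32.1, 21.6 and 51.96 CPM in gFBXW7_gKMT2D, 40.2, 33.8 and 32.96 CPM in gFBXW7, against 40.5, 28.5 and 24.7 CPM in gLuc. All 5 core chaperones had their highest value in gFBXW7_gKMT2D 3. Among the chaperones of the 19S base, PSMD9 had 88.7, 59.2 and 133 CPM in gFBXW7_gKMT2D, 111, 92.2 and 87.4 CPM in gFBXW7, against 106, 74.95 and 60.4 CPM in gLuc. PSMD10, also known as the oncoprotein gankyrin, had 85.2, 72.1 and 114 CPM in gFBXW7_gKMT2D, 98.96, 80.7 and 92.8 CPM in gFBXW7, against 86.1, 79.1 and 75.6 CPM in gLuc. PSMD5 (chromosome 9, 120815496 to 120842984) had 39.1, 47.6 and 25.98 CPM in gFBXW7_gKMT2D, 33.4, 38.7 and 45.5 CPM in gFBXW7, against 34.8, 44.3 and 49.8 CPM in gLuc. PSMD9 and PSMD10 were highest and PSMD5 lowest in gFBXW7_gKMT2D 3, and for none of the 3 did the groups separate.

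**Figure D4:**
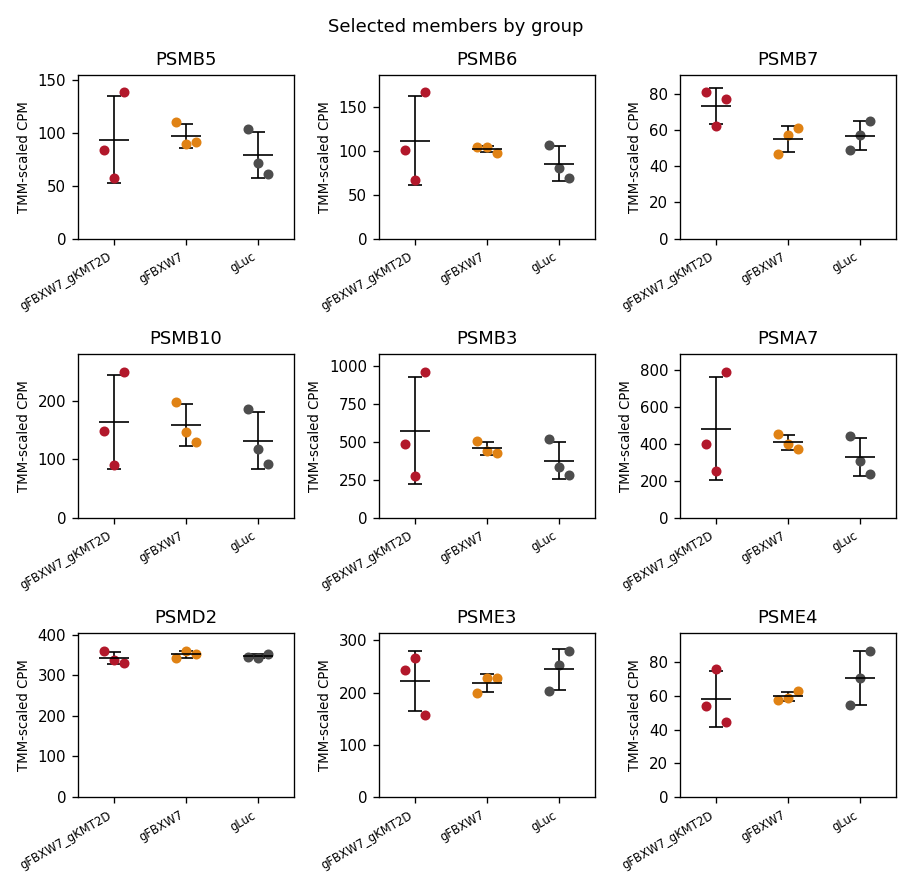
TMM-scaled CPM of 9 members in each library (points, replicates 1 to 3 from left to right) with the group mean and SD (bars, n = 3). PSMB7 shows its gFBXW7_gKMT2D points above all gFBXW7 points, PSMD2 is nearly level, and PSME3 and PSME4 are lowest in gFBXW7_gKMT2D 3, where PSMB3 and PSMA7 are highest.

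Addition of the KMT2D-targeting RNA, the comparison of gFBXW7_gKMT2D with gFBXW7, changed 0 of 45 tested members, against 0.0603% of all 13262 tested genes. With a share that low, 0 of 45 says little about the members. DESeq2 and limma on RPKM also called 0 members, and 1 member (2.22%) had an unadjusted p under 0.05, against 4.22% of all tested genes. The median log2 fold change of the members was 0.01, against 0.02 for all tested genes, with 24 of 45 members above 0, beside 7245 of all 13262 tested genes. By class the median was 0.17 for the core, -0.04 for the cap, -0.0011 for the activators and inhibitor, and -0.01 for the chaperones. Single libraries turned the sign of these too: without gFBXW7_gKMT2D 3 the core was -0.31 and the activators and inhibitor 0.10, and without gFBXW7_gKMT2D 2 the cap was 0.06 and the chaperones 0.24, against -0.21 without gFBXW7_gKMT2D 3. With 1 surrogate variable the core was 0.01. PSMB7 was the member with the unadjusted p under 0.05, averaging 73.5 ± 9.85 CPM in gFBXW7_gKMT2D and 55.3 ± 7.28 CPM in gFBXW7 (SD, n = 3 each; log2 fold change 0.41, SE 0.16, adjusted p = 1.0). It was the 1 member whose gFBXW7_gKMT2D libraries all lay above the gFBXW7 libraries, as did 4.35% of all tested genes, and 0 members lay wholly below, as did 5.2%. PSMB3 was next (log2 fold change 0.33, SE 0.40, adjusted p = 1.0), and its value turned to -0.27 without gFBXW7_gKMT2D 3. At the low end stood PSMC3 (log2 fold change -0.16, SE 0.14, adjusted p = 1.0) and PSMD13 (log2 fold change -0.16, SE 0.19, adjusted p = 1.0), which were -0.08 and -0.02 without gFBXW7_gKMT2D 2.

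With 1 surrogate variable in the edgeR model, which took its most extreme value in gFBXW7_gKMT2D 3, 125 genes (0.943%) were called in this comparison and again 0 members. Unadjusted p under 0.05 was then reached by 5 members (11.1%), against 16.7% of all tested genes. PSMB7 had a log2 fold change of 0.41 (SE 0.13, edgeR adjusted p = 0.157) in that model, the lowest adjusted p of any member. Without the surrogate variable, PSMB7 stayed between 0.31 and 0.52 over the libraries left out. The median of the members was 0.22 without gFBXW7_gKMT2D 2 and -0.20 without gFBXW7_gKMT2D 3, so single libraries set its sign, and it was 0.06 without gFBXW7 1. The omission that moved the count at an unadjusted p under 0.05 most was that of gFBXW7_gKMT2D 2. It gave 5 members (11.1%), PSMA1, PSMA6, PSMB7, PSMD8 and PSMG1, against 7.11% of all tested genes. Their lowest edgeR adjusted p was 0.672, and each other omission gave 0 or 1 member at an unadjusted p under 0.05.

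Against the control, gFBXW7_gKMT2D showed 0 changed members, against 0.0528% of all tested genes, by edgeR and likewise by DESeq2 and by limma on RPKM. An unadjusted p under 0.05 was found for 1 member (2.22%), PSMB7, against 3.61% of all tested genes. In value, 37 of 45 members stood above 0, beside 6635 of all 13262 tested genes, with a median log2 fold change of 0.22, against 0.0002 for all. All 15 core genes had values above 0 (median 0.33, 0.11 to 0.61). The median was 0.08 for the cap, 0.22 for the chaperones and -0.14 for the activators and inhibitor, where PSME1 and PSME2 were above 0 and PSME3, PSME4 and PSMF1 below. PSMB3 had the highest value, averaging 573 ± 353 CPM in gFBXW7_gKMT2D and 376 ± 124 CPM in gLuc (SD, n = 3 each; log2 fold change 0.61, SE 0.40, adjusted p = 0.902). PSMA7 followed (log2 fold change 0.56, SE 0.37, adjusted p = 0.902), and PSMB7, with less spread, had a smaller value (log2 fold change 0.37, SE 0.16, adjusted p = 0.902). Lowest were PSME4 (log2 fold change -0.28, SE 0.22, adjusted p = 0.902) and PSMD5 (log2 fold change -0.19, SE 0.23, adjusted p = 0.902). For 0 members were the 2 groups apart, while 3.28% of all tested genes lay wholly above and 3.69% wholly below.

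Leaving out single libraries changed the size of these values and turned the sign of some. Over the libraries left out, PSMB7 stayed between 0.27 and 0.48 and PSME4 between -0.53 and -0.10. The median of the activators and inhibitor stayed between -0.25 and -0.03. Without gFBXW7_gKMT2D 3 the median of the members in gFBXW7_gKMT2D against gLuc was -0.03, that of the core -0.03, that of the cap -0.03, that of the chaperones -0.04 and that of the activators and inhibitor -0.03. The value of PSMB3 was then 0.01, that of PSMA7 0.0002, that of PSME4 -0.12 and that of PSMD5 0.02. Leaving out gFBXW7_gKMT2D 2 gave a median of 0.43, gLuc 1 gave 0.35 and gLuc 3 gave 0.10. The median of the core was 0.59 without gFBXW7_gKMT2D 2, 0.50 without gLuc 1 and 0.21 without gLuc 3, and without gLuc 3 that of the cap was 0.0030. The median of all 45 members was -0.03 with 1 surrogate variable, 0.08 with the gene length trend of each library removed and 0.08 with limma on log2(RPKM + 1). PSMA7 was 0.08 and PSMB3 0.07 with the surrogate variable, and PSMB7 was 0.37 there and 0.15 with the length trend removed. In the surrogate variable model 2 members, PSMB7 and PSMG4, had an unadjusted p under 0.05, against 9.42% of all tested genes, and 0 were called, against 0.407%. Of the single omissions, that of gFBXW7_gKMT2D 2 moved the count at an unadjusted p under 0.05 most, and it is given for that reason. It gave 18 of 45 members (40.0%), against 18.7% of the same 13262 genes. They were all 7 tested alpha subunits, PSMB1, PSMB3, PSMB6, PSMB7, PSMD8, PSME1, PSME2, POMP, PSMG1 and PSMG2 with values above 0, and PSME4 below 0. The lowest edgeR adjusted p among them was 0.264, so 0 were called. Each other omission gave 0 or 1 member at an unadjusted p under 0.05. The library gFBXW7_gKMT2D 2 held the lowest value for 29 of 45 members, so leaving it out raised their gFBXW7_gKMT2D mean.

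The FBXW7-targeting RNA alone, gFBXW7 against gLuc, changed 0 members and 0.0% of all tested genes by edgeR, with 0 members also by DESeq2, which called 1 gene in all, and by limma. An unadjusted p under 0.05 was reached by 0 members and by 1.58% of all tested genes, and with 1 surrogate variable by 0 members and 4.25%. The values of 37 of 45 members were above 0, beside 6535 of all 13262 tested genes, with a median of 0.14, against -0.0042 for all. This comparison and the preceding one share the gLuc libraries, and gLuc 3 was low for most members. Without gLuc 3 the median was 0.05, without gLuc 1 it was 0.28, with 1 surrogate variable 0.02 and with the length trend removed 0.03. Medians by class were 0.20 for the core, 0.11 for the cap, 0.18 for the chaperones and -0.02 for the activators and inhibitor. Without gLuc 3 they were 0.05 for the core, 0.04 for the cap, 0.04 for the chaperones and 0.04 for the activators and inhibitor, and without gLuc 1 the core was 0.42. With 1 surrogate variable the core was -0.04. PSMG3 (log2 fold change 0.32, SE 0.31, adjusted p = 0.956) and PSMA7 (log2 fold change 0.31, SE 0.37, adjusted p = 0.956) were highest, and PSME4 (log2 fold change -0.24, SE 0.22, adjusted p = 0.956) and PSME3 (log2 fold change -0.17, SE 0.21, adjusted p = 0.956) lowest. Without gLuc 3 these were 0.13 for PSMG3, 0.12 for PSMA7, -0.08 for PSME4 and -0.07 for PSME3. The gFBXW7 libraries of PSMD14 and PSMG1 lay wholly above those of gLuc, 2 members (4.44%) beside 4.37% of all tested genes, and 0 members lay wholly below, beside 4.48%.

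Gene length moved with these values. The tested members have a median table length of 1717 bases, against 3908.5 bases for all tested genes. Across the 45 members Spearman's rho between length and log2 fold change was -0.34 in gFBXW7_gKMT2D against gFBXW7, -0.70 in gFBXW7_gKMT2D against gLuc and -0.52 in gFBXW7 against gLuc, beside 0.08, -0.30 and -0.42 across all tested genes in the same comparisons, where genes share libraries and are not independent. Within single libraries, rho between length and the deviation of the members was 0.45 in gFBXW7_gKMT2D 2, -0.51 in gFBXW7_gKMT2D 3, 0.55 in gLuc 2 and 0.55 in gLuc 3, beside 0.47, -0.31, 0.34 and 0.51 over all tested genes in the same libraries. In the other 5 libraries it was -0.37 to 0.22 for the members. PSME3, PSME4, PSMF1 and PSMD5, the set picked after its values were seen, have 3905 to 8360 bases. Genes of like length also went with the other members: PSMG4 with 7349 bases (r = 0.972) and PSMD1 with 4332 (r = 0.910). PSMD3, with 2187 bases, ran against them (r = -0.746). The part of length in the members' values was not tested beyond the fit without its trend.

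**Figure D5:**
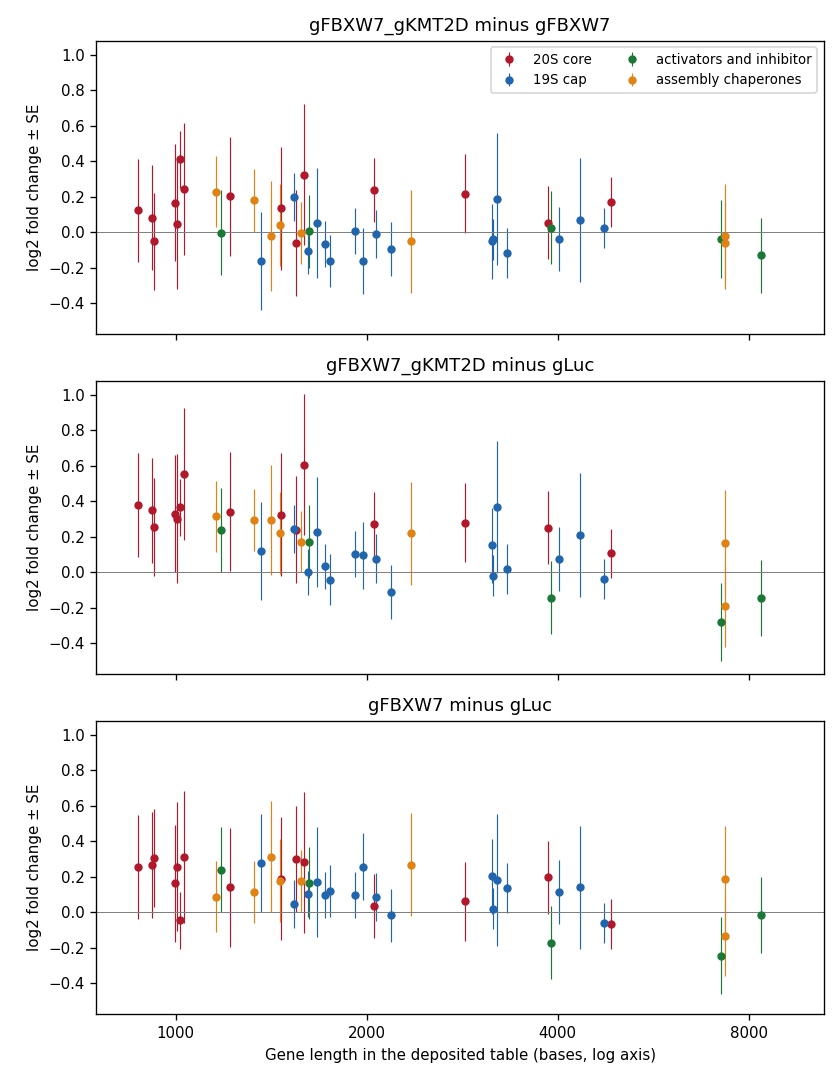
Log2 fold change with its SE (edgeR) of each tested member against its gene length in the deposited table (log axis), 1 panel per comparison, coloured by class. In gFBXW7_gKMT2D against gLuc values are lower for longer genes (rho = -0.70), with PSMB3 and PSMA7 highest and PSME4 lowest.

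The list for neighbouring steps of the pathway held 31 genes with a row, and all 31 were tested. None changed by edgeR in any comparison, and 0 had an unadjusted p under 0.05. Medians were 0.02 in gFBXW7_gKMT2D against gFBXW7, -0.02 in gFBXW7_gKMT2D against gLuc and -0.0014 in gFBXW7 against gLuc. Of all tested genes, 0.0603, 0.0528 and 0.0% changed in that order, and 4.22, 3.61 and 1.58% had an unadjusted p under 0.05. With shares that low, 0 of 31 says little about the list. NFE2L1, the transcription factor that raises proteasome genes when the proteasome is overloaded, had 294, 351 and 174 CPM in gFBXW7_gKMT2D, 292, 343 and 294 CPM in gFBXW7, against 270.4, 307 and 327 CPM in gLuc. Its order was turned against the members, lowest in gFBXW7_gKMT2D 3 (r = -0.845 with the members' median over 9 libraries, as a description). ADRM1, a ubiquitin receptor of the cap, had 179, 132 and 147 CPM in gFBXW7_gKMT2D, 136, 158 and 146 CPM in gFBXW7, against 148, 135 and 117 CPM in gLuc. USP14, a deubiquitinase that docks on PSMD2, had 218, 239 and 191 CPM in gFBXW7_gKMT2D, 204, 199 and 217 CPM in gFBXW7, against 194, 228 and 234 CPM in gLuc. UCHL5, the deubiquitinase that binds ADRM1, had 199, 192 and 214 CPM in gFBXW7_gKMT2D, 182, 174 and 189 CPM in gFBXW7, against 188, 199 and 195 CPM in gLuc. The groups overlapped for NFE2L1, ADRM1 and USP14, and the gFBXW7_gKMT2D libraries of UCHL5 all lay above the gFBXW7 libraries. PAAF1, a chaperone of the base, had 37.96, 31.03 and 31.5 CPM in gFBXW7_gKMT2D, 38.5, 40.8 and 40.2 CPM in gFBXW7, against 37.8, 34.8 and 35.1 CPM in gLuc, with the gFBXW7_gKMT2D libraries all below the gFBXW7 libraries, and was the lowest of the list in that comparison (log2 fold change -0.25, SE 0.12, adjusted p = 1.0). The small cap subunit SEM1, listed as SHFM1, followed the members most closely (r = 0.986). The protease gene DDI2, which cleaves NFE2L1, ran most against them (r = -0.977) and was sparsely read, at 0.646 to 7.13 CPM. DDI2 and SHFM1 were picked after their values were seen. In gFBXW7_gKMT2D against gFBXW7, 1 of the 31 genes lay wholly above (UCHL5) and 3 wholly below (PAAF1, NGLY1 and NPLOC4), beside 4.35% and 5.2% of all tested genes. In gFBXW7_gKMT2D against gLuc the counts were 0 above and 1 below (NPLOC4), beside 3.28% and 3.69%, and in gFBXW7 against gLuc 4 above (PAAF1, NGLY1, PITHD1 and ZFAND2A) and 0 below, beside 4.37% and 4.48%.

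Since members moved together or against each other across libraries, the 250 bases before the RefSeq start were read for a pair of widely varying members, PSMB3 and PSMC6, and for the pair with the most contrary order, PSME4 and PSME3, among members with a single window, from RefSeq promoter windows on GRCh38.p14. The windows are PSMB3 at chr17:38752491-38752740 on the plus strand, PSMC6 at chr14:52706950-52707199 on the plus strand, PSME4 at chr2:53970994-53971243 on the minus strand and PSME3 at chr17:42833147-42833396 on the plus strand. The PSME3 window lies inside that gene's GENCODE span (chromosome 17, 42824385 to 42843758), so it precedes the RefSeq start but not the GENCODE start. Capitals mark TGACNNNGC, the core of the antioxidant response element that NFE2L1 and NFE2L2 bind, and CCAAT, the box bound by NF-Y, on either strand, so that a CCAAT box reads ATTGG when it lies on the other strand.
PSMB3: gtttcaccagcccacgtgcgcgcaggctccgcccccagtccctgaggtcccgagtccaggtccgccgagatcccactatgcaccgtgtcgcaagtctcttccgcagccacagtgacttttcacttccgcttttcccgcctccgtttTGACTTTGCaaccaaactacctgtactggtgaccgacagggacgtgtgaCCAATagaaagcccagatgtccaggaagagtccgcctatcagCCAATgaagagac
PSMC6: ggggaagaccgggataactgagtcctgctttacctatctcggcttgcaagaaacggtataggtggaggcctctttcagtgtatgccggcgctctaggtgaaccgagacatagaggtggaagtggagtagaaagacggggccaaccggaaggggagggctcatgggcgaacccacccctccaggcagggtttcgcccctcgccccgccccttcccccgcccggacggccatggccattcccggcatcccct
PSME4: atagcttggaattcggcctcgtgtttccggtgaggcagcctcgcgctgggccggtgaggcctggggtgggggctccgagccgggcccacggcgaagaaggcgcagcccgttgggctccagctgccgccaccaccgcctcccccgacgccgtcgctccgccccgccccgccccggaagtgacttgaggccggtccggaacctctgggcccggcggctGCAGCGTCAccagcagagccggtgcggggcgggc
PSME3: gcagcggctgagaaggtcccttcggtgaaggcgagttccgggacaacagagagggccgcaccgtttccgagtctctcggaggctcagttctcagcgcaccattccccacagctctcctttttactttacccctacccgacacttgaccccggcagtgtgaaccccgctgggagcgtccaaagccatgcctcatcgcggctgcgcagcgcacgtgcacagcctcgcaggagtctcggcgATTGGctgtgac

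PSMB3 holds 1 TGACNNNGC match and 2 CCAAT boxes, PSMC6 neither, PSME4 1 TGACNNNGC match and PSME3 1 CCAAT box. Windows were given for 42 of the 48 members, 51 in all. TGACNNNGC was found in 12 of the 51 (23.5%), against 10.9% of all 35116 windows of the same length. The 12 genes are from each class: PSMA4 and PSMB3 in the core, PSMC5, PSMD3 and PSMD12 in the cap, PSME1, PSME2 and PSME4 among activators, and PSMG1, PSMG2, PSMD5 and PSMD9 among chaperones. CCAAT was found in 18 of the 51 (35.3%), against 32.0% of all windows. The motifs do not overlap each other in the 4 windows shown. A match is a run of letters, not a bound site.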

How the data were processed

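Messenger RNA of 9 OPM-1 libraries, 3 in each of 3 groups taken from the labels, was analysed from 1 deposited table. The submitters' processing notes name featureCounts, STAR, DESeq2 and Trimmomatic, and the build GRCh38. Versions and the strand setting of the counting are not given in the sources used here. The count values deposited by the authors are whole reads per gene, not normalised. The RPKM values deposited by the authors equal count scaled to the table's gene length and the library's counted reads (largest relative difference 8.5e-07). An unnamed row equal to the sum of all others was left out, and 28 rows bearing a number as symbol were kept and never named. Between replicates, chi-squared divided by its degrees of freedom was 6.36 to 231, so no library was a repeat of another. The labels call the replicates independent, and p-values measure the spread between these libraries.

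The counts were fitted with edgeR 4.0.16 under R 4.3.3 (filterByExpr by group, TMM, quasi-likelihood fit with group as the only term, glmQLFTest, Benjamini-Hochberg adjustment, threshold 0.05). Standard errors were computed from fold change and F statistic. Log2 CPM used a prior count of 2. Alternatives were DESeq2 1.42.0 (size factors within edgeR, and its Wald test), limma 3.58.1 on log2 of RPKM plus 1, omission of the filter, a stricter one (mean of 50 reads), a fit of the 6 compared libraries alone, a replicate block, 1 surrogate variable (sva 3.50.0), removal of each library's gene length trend (lowess, span 0.3) and leaving out each library. The fit was tested on simulated data. Of the marker genes used to check the line, 1 is not reported here. The members and gene lists were chosen with earlier results of these data known. Values in every library are given for the catalytic subunits, activators and chaperones and for the 2 highest and 2 lowest members of each comparison, by rule. PSMD14, PSMD1, PSMD2 and PSMC6 were added after their values were seen, as were the ratios of RPKM. Coordinates are 1-based, from GENCODE v29 on GRCh38. Of the members, 12 have pseudogenes named after them there (PSMC1 has 13), so their counts may be split, and 5 have antisense neighbours with rows of their own. Figures were drawn with Python 3.11.15 and matplotlib 3.10.9.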

Additional observations from a re-analysis of the deposited data

How the results depend on the processing

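The count of changed members was 0 in all 3 comparisons under every alternative run, each library left out in turn included. Few of all tested genes were called in these fits, so counts of 0 say little about the members. The medians of the members moved by less than 1 SD of the replicates' own medians, but that SD was 0.16 to 0.34 on the log2 scale, wider than the medians. Leaving out single libraries gave medians from -0.20 to 0.22 in gFBXW7_gKMT2D against gFBXW7, from -0.03 to 0.43 in gFBXW7_gKMT2D against gLuc and from 0.05 to 0.28 in gFBXW7 against gLuc. Over the libraries left out, PSMB3 in gFBXW7_gKMT2D against gFBXW7 ranged from -0.27 to 0.66 and PSMD5 in gFBXW7_gKMT2D against gLuc from -0.40 to 0.0167, and both turned sign without gFBXW7_gKMT2D 3. PSME3 in gFBXW7 against gLuc turned to 0.0066 with 1 surrogate variable. The cause was not tested. The median of the 19S cap in gFBXW7 against gLuc was -0.01 with the length trend removed, outside 1 SD of its main value. PSMA7 in gFBXW7_gKMT2D against gLuc came to 0.0002 without gFBXW7_gKMT2D 3, and the median of the core in gFBXW7_gKMT2D against gFBXW7 turned to -0.31 there. No named fold change passed the threshold under any alternative run.

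Over all genes, edgeR called 8, 7 and 0 in gFBXW7_gKMT2D against gFBXW7, gFBXW7_gKMT2D against gLuc and gFBXW7 against gLuc. In that order the count was 125, 54 and 0 with 1 surrogate variable, 31, 21 and 1 by DESeq2, 33, 21 and 0 with no filter, 3, 4 and 0 by limma on RPKM, 5, 8 and 0 with the length trend removed and 0, 2 and 0 with the 6 libraries alone. With the replicate block it was 2, 2 and 0, with medians of the members of -0.01, 0.16 and 0.16 and 0 members called. Same-numbered libraries correlated from -0.59 to 0.45 in their deviations from group means, so the numbers were not taken as pairs. Tested members had 362 to 16606 reads in a library.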

Other observations

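Antisense neighbours of members have rows of their own. PSMA3-AS1 had 26.00, 22.5 and 37.2 CPM in gFBXW7_gKMT2D, 30.8, 24.3 and 24.3 CPM in gFBXW7, against 26.9, 22.1 and 21.4 CPM in gLuc. PSMD5-AS1 had 18.9, 19.96 and 15.5 CPM in gFBXW7_gKMT2D, 20.8, 21.5 and 21.9 CPM in gFBXW7, against 19.8, 20.7 and 23.5 CPM in gLuc. PSMA3-AS1, like PSMA3, was highest in gFBXW7_gKMT2D 3, and PSMD5-AS1, like PSMD5, was lowest there. PSMD6-AS2 had 2.36, 2.31 and 1.94 CPM in gFBXW7_gKMT2D, 1.73, 1.67 and 1.73 CPM in gFBXW7, against 1.17, 1.98 and 2.14 CPM in gLuc, and was highest in gFBXW7_gKMT2D 1, while PSMD6 was highest in gFBXW7_gKMT2D 3. PSMB8-AS1 and PSMG3-AS1 were at 1.02 to 3.59 CPM and 0.204 to 0.861 CPM over the 9 libraries. The strand setting of the counting is not given in the sources used here, so reads of partners cannot be told apart.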
